A study of Drosophila melanogaster with 3 samples.

Results

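The stretch of chromosome arm 3L from 490 to 510 kb held the densest cluster of peaks of the exon junction complex (EJC) in this series. Its members were the 275 peaks, of 87432 in all, whose midpoint lay in the stretch in the peak lists of 3 purifications. They comprised 110 of 34945 peaks of the eIF4AIII/Y14 list, 75 of 36393 of the Btz/eIF4AIII list and 90 of 16094 of the Y14/eIF4AIII list. The stretch was chosen because the lists mark more shared places there than in any other window of that length, so its density and its count of shared places are given as a description, with no test. Coordinates are 1-based and, by the sequence names in the lists, those of release 5 of the Drosophila melanogaster genome. No annotation of that release was used, and the peaks are not assigned to genes, exons or introns.

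The EJC is a set of proteins that splicing leaves on mRNA a short distance upstream of the junction of 2 exons. eIF4AIII is the RNA helicase that clamps the RNA, Y14 forms a pair with Mago that locks the clamp, and Btz (Barentsz) is the further core protein that joins the complex on the spliced mRNA. The complex marks where introns were removed and takes part in mRNA localisation, translation and decay until ribosomes displace it. Since the strand of an EJC footprint is that of the spliced mRNA, footprints of 1 gene lie on 1 strand.

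All 3 libraries came from S2 cells, an established Drosophila line with hemocyte-like properties, in which copper induced the tagged protein. The cells had grown for 72 h and were then kept for 2 h with cycloheximide at 100 µg/ml, an inhibitor of translation. The eIF4AIII/Y14 library was captured by tagged eIF4AIII and then with an antibody against Y14, the Btz/eIF4AIII library by tagged Btz and then eIF4AIII, and the Y14/eIF4AIII library by tagged Y14 and then eIF4AIII. Complexes were selected on oligo(dT) and trimmed for 15 min with micrococcal nuclease, at 0.5 units for eIF4AIII/Y14 and Btz/eIF4AIII and at 0.3 units for Y14/eIF4AIII. Each purification had 1 library and no untagged or input sample was analysed here, so differences between purifications have no replicate check and no p-value is given. The deposited score of a peak, a mean number of reads per base, is called depth. Depth carries no scaling for library size, and library read numbers are not given in the sources here, so it was compared only within a list. Shares are given with exact 95% binomial (Clopper-Pearson) intervals, which cover counting error only and treat as independent peaks that share a library and a neighbourhood.

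The peaks fell into a pair of blocks with an empty interval between them, and both blocks carried peaks on both strands in each list. Dividing the stretch wherever no list had a peak for over 500 nt gave a left block from 494285 to 498114, which is 3830 nt long and held 130 peaks, and a right block from 502210 to 506572, which is 4363 nt long and held 129 peaks. The 4095 nt between the blocks held no peak in any list. A smaller group at the right end, from 507974 to 508799, 826 nt long, held 14 peaks, of which 13 were on the minus strand. The remaining members were 2 single eIF4AIII/Y14 peaks, at 490634 to 490658 on the minus strand and at 507278 to 507298 on the plus strand.

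**Figure D1:**
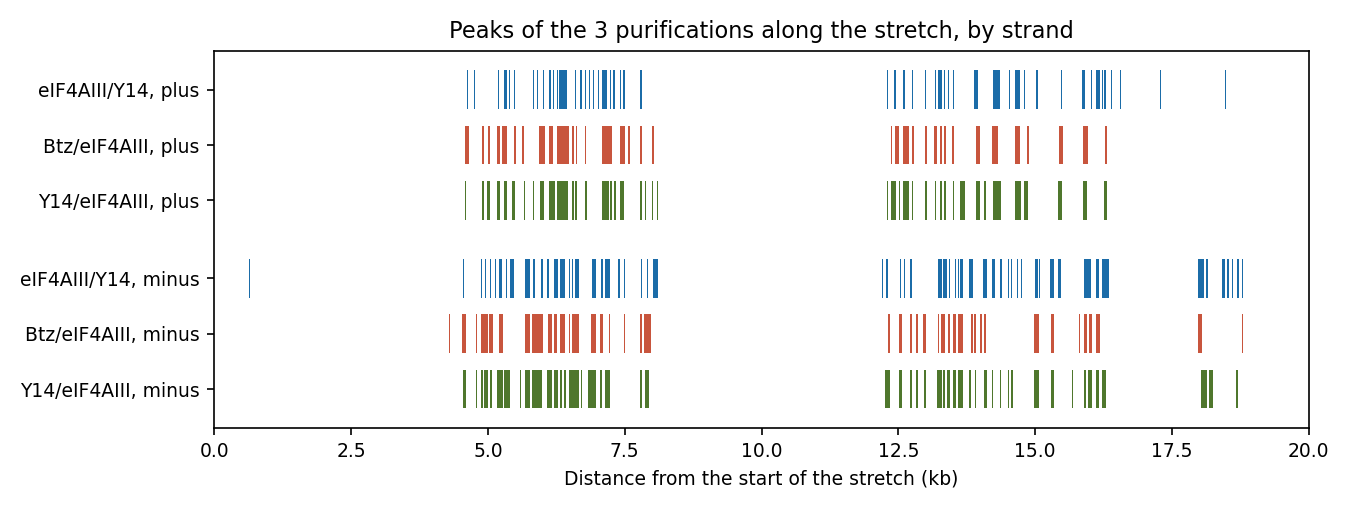
Each bar is a peak, drawn to scale at its distance in kb from the start of the stretch, with a row for each purification and strand. All 6 rows are filled in the left and the right block and empty in the 4095 nt between them, while the group at the right end is almost entirely on the minus strand.

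The same layout held in each list taken alone. The left block had 25 plus-strand and 25 minus-strand peaks in the eIF4AIII/Y14 list, 18 and 19 in the Btz/eIF4AIII list and 22 and 21 in the Y14/eIF4AIII list. The right block had 24 and 26, 16 and 20, and 19 and 24 in the same order. Peaks of eIF4AIII/Y14 covered 20.9% of the left block on the plus strand and 30.3% on the minus strand. For Btz/eIF4AIII these shares were 31.02% and 37.7%, and for Y14/eIF4AIII 31.6% and 42.2%. Coverage of the right block was lower than that of the left on both strands in every list. It was 20.3%, 22.0% and 25.9% on the plus strand and 27.0%, 21.8% and 26.4% on the minus strand, in the same order. The longest gap between neighbouring peaks was the empty interval between the blocks in every list. It measured 4475 nt in eIF4AIII/Y14 (497813 to 502287, plus strand), 4343 nt in Btz/eIF4AIII (498028 to 502370, plus strand) and 4301 nt in Y14/eIF4AIII (497950 to 502250, minus strand).

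Outside the stretch the lists were empty for a long way on the left and, on the plus strand, on the right. No peak of any list lay between 462558, where Btz/eIF4AIII peaks of both strands and a plus-strand Y14/eIF4AIII peak ended, and the first member at 490634. The nearest plus-strand peak to the right began 32840, 34960 and 39839 nt after the last member in eIF4AIII/Y14, Btz/eIF4AIII and Y14/eIF4AIII. On the minus strand the neighbours were closer. In eIF4AIII/Y14 the next peak lay at 512292 to 512320 with 66 reads per base, and in the other lists the next began at 514612, with 1068 reads per base in Btz/eIF4AIII and 1420 in Y14/eIF4AIII.

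Peaks of one strand often lay over peaks of the other. In eIF4AIII/Y14, 53 of the 110 members (48.2%; 95% interval 38.6 to 57.9) overlapped an opposite-strand peak of the same list by at least 1 bp, against 0.893% of the whole list. In Btz/eIF4AIII it was 39 of 75 (52.0%; 40.2 to 63.7), against 0.588% of the whole list, and in Y14/eIF4AIII 56 of 90 (62.2%; 51.4 to 72.2), against 0.795%. The rule that chose the stretch did not use this measure, but a dense stretch gives more room for overlaps. Among the other windows of 20 kb the highest held 8 such peaks in the eIF4AIII/Y14 list, 6 in the Btz/eIF4AIII list and 4 in the Y14/eIF4AIII list. With only peaks at or above the median depth of their list, such an overlap was left at 20 of 63 members in eIF4AIII/Y14. It was left at 0 of 4 in Btz/eIF4AIII and 0 of 12 in Y14/eIF4AIII. The 4 Btz/eIF4AIII members were all on the minus strand, so no overlap was possible among them. The share over the whole lists at that depth was not computed.

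**Figure D2:**
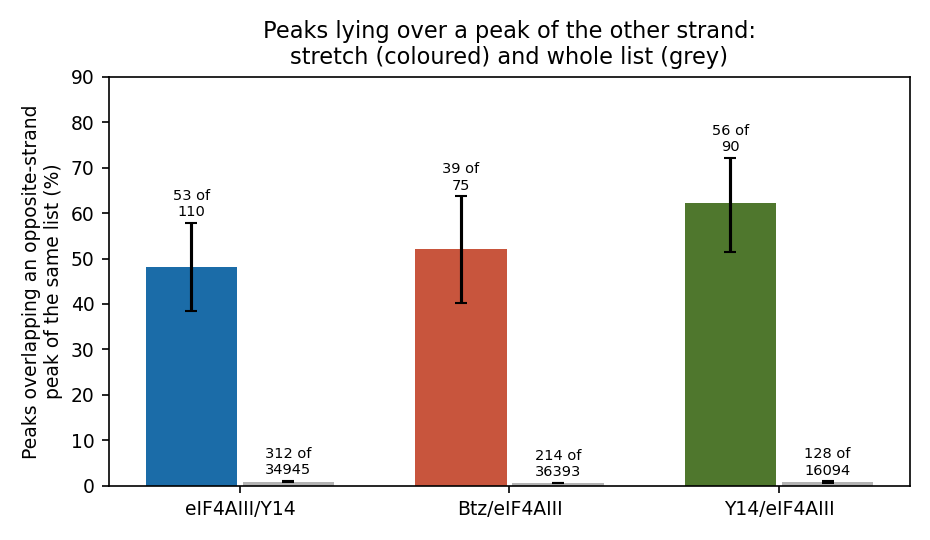
Bars give the percent of peaks that overlap an opposite-strand peak of the same list, for the stretch (coloured, left) and for the whole list (grey, right), with exact 95% binomial intervals. The stretch lies at 48.2%, 52.0% and 62.2%, and the whole lists lie under 1%.

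By bases, 655 of the 3711 bases covered in the stretch by eIF4AIII/Y14 peaks were covered on both strands (17.7%), against 0.185% over the whole list. The shares were 15.6% against 0.108% in Btz/eIF4AIII and 19.0% against 0.184% in Y14/eIF4AIII. The plus strand held 46.4%, 45.3% and 45.6% of the members in eIF4AIII/Y14, Btz/eIF4AIII and Y14/eIF4AIII. In windows of 20 kb with at least 20 peaks, the less used strand held a median of 20.0%, 25.0% and 8.35% of the peaks. An even split was not unique, because 31 other windows of 513 were as even in the eIF4AIII/Y14 list, 50 of 591 in the Btz/eIF4AIII list and 3 of 68 in the Y14/eIF4AIII list.

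Peaks that overlapped by at least 1 bp on the same strand were merged into 119 loci across the lists. Of these, 56 (47.1%; 95% interval 37.8 to 56.4) had a peak in all 3 lists, against 6.72% of the 63358 loci of the series. The rule chose the stretch by this count, so nothing is read from the comparison. Loci of 2 lists numbered 20 (16.8%, against 21.2% of the series), and 43 had a peak in a single list (36.1%, against 72.0%). Of these 43, 31 were in eIF4AIII/Y14 (26.1% of the 119 loci, against 29.3% of the series). A further 8 were in Y14/eIF4AIII (6.72%, against 11.5%) and 4 in Btz/eIF4AIII (3.36%, against 31.3%). These shares depend on the share of loci in all 3 lists, so they carry the same limit. The 31 loci found only in eIF4AIII/Y14 had a median width of 21 nt. Of the 56 shared loci, 27 lay on the plus strand and 29 on the minus strand. The left block held 12 and 15 of them, the right block 15 and 12, and the right-end group 0 and 2. In 43 of the 56, each list contributed exactly 1 peak. The loci were 23 to 240 nt long, with a median of 90 nt. With only peaks at or above the median depth of their list, 1 shared locus was left in the stretch, and with overlap of at least 50% of both peaks 29 were left.

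The shared loci overlapped one another across the strands. Of the 56, 28 (50.0%; 36.3 to 63.7) overlapped a shared locus of the opposite strand, against 0.704% of the 4260 loci found in all 3 lists. Outside the stretch this was so for 2 of 4204. The 28 formed 17 overlapping pairs, with overlaps of 10 to 122 nt and a median of 36 nt, and 19 of them were in the left block and 9 in the right. The next densest windows of 20 kb had no such overlap. Window 6190001 to 6210000 of 3L held 21 shared loci, and its eIF4AIII/Y14 peaks were 8 on the plus and 55 on the minus strand. Window 3110001 to 3130000 of 3L held 19, with 0 and 38.

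The longest overlap of such a pair, chosen after the values were seen, lay in the left block between a plus-strand locus at 496263 to 496474 and a minus-strand locus at 496312 to 496433. Summed depth, the depth of each peak times its width added over the locus, was 12104 on the plus strand and 7861 on the minus strand in the eIF4AIII/Y14 list, 970 and 1039 in the Btz/eIF4AIII list and 1502 and 2532 in the Y14/eIF4AIII list. The plus strand was thus the deeper one in eIF4AIII/Y14 only. Another pair, at 497081 to 497274 on the plus and 497147 to 497238 on the minus strand, was deeper on the plus strand in all 3 lists, with 19209 against 9959, 2573 against 209 and 2727 against 682. Over the 17 pairs the same strand was the deeper one in all 3 lists at 12, split evenly into 6 plus-strand and 6 minus-strand cases.

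The members were shallow in 2 of the lists. The median depth was 67.0 reads per base in eIF4AIII/Y14, against 52 for its whole list. In Btz/eIF4AIII it was 7.5, against 95.3, and in Y14/eIF4AIII 12.6, against 34. Of the members, 63 of 110 (57.3%; 47.5 to 66.7) reached the median of their list in eIF4AIII/Y14. In Btz/eIF4AIII it was 4 of 75 (5.33%; 1.47 to 13.1), and in Y14/eIF4AIII 12 of 90 (13.3%; 7.08 to 22.1). A few members were much deeper. The deepest eIF4AIII/Y14 member, at 502993 to 503014 on the plus strand, had 475 reads per base and ranked 1634 in its list. The deepest Btz/eIF4AIII member, at 507974 to 508049 on the minus strand, had 731 and ranked 1727. The deepest Y14/eIF4AIII member, at 503587 to 503677 on the minus strand, had 865 and ranked 1876. In all, the stretch held 0.213%, 0.0211% and 0.0646% of the summed depth of the lists in the same order, and 0.315%, 0.206% and 0.559% of their peaks.

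**Figure D3:**
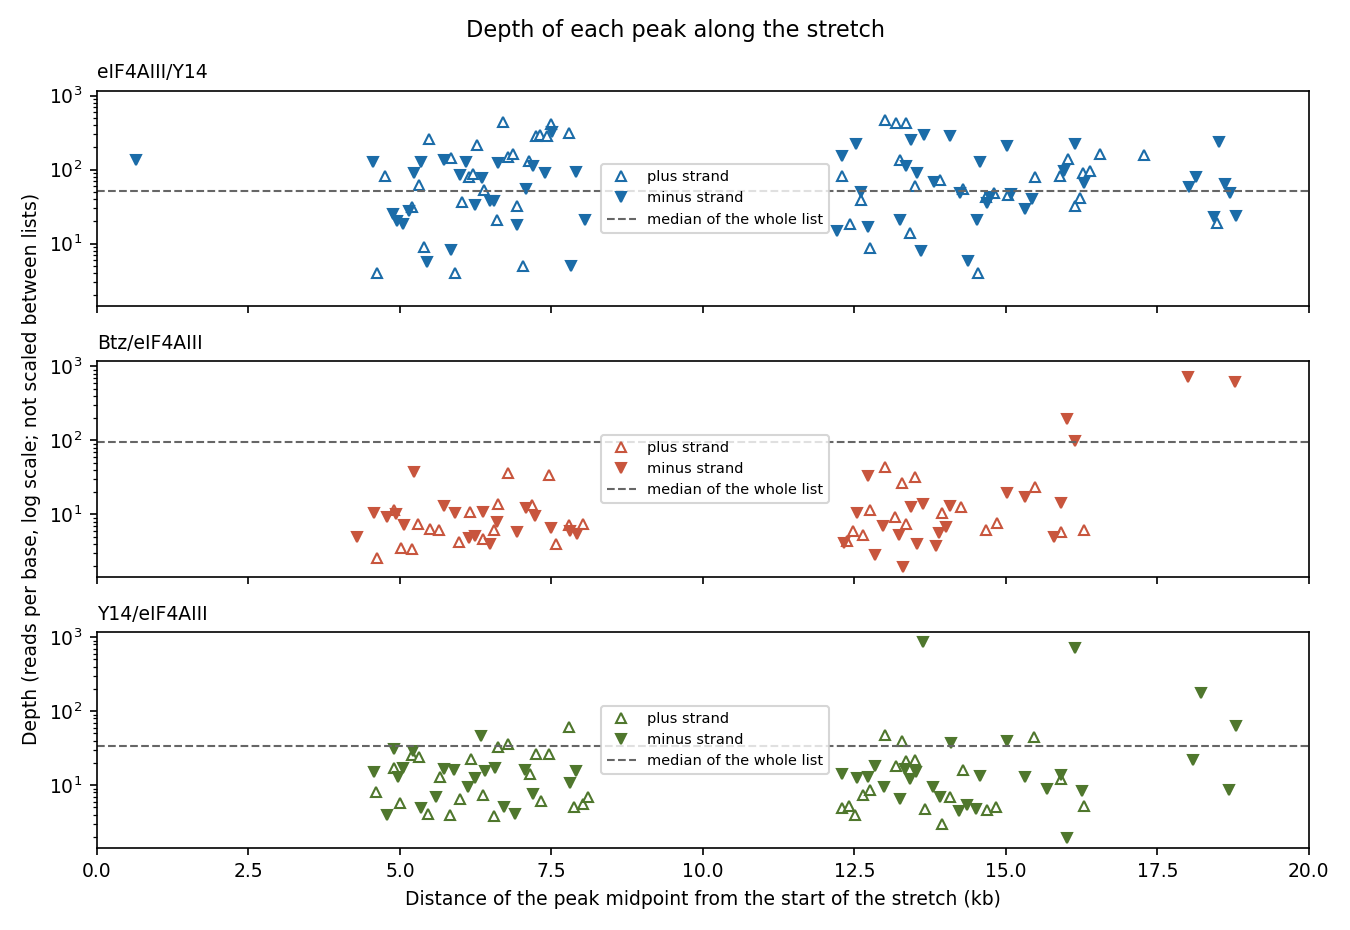
Each symbol is a peak at its midpoint, with depth in reads per base on a log scale, open triangles for the plus strand and filled ones for the minus strand, and a dashed line at the median of the whole list. Most eIF4AIII/Y14 members lie around or above their line, and most Btz/eIF4AIII and Y14/eIF4AIII members lie below theirs. The 4 Btz/eIF4AIII members at or above the line are on the minus strand, and the 12 Y14/eIF4AIII ones comprise 5 on the plus and 7 on the minus strand.

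Depth in the lists purified second through eIF4AIII was concentrated in a few minus-strand peaks. The minus strand held 54.4% of the summed depth of the stretch in the eIF4AIII/Y14 list, 82.8% in the Btz/eIF4AIII list and 83.4% in the Y14/eIF4AIII list. The 4 peaks with most summed depth held 13.9%, 66.0% and 65.1% in the same order. In Btz/eIF4AIII the right-end group alone held 50.6% of the depth, in 2 peaks. In Y14/eIF4AIII the kilobase from 503001 to 504000 held 42.6%, while it held 5.77% in Btz/eIF4AIII and 19.3% in eIF4AIII/Y14. On the plus strand no Btz/eIF4AIII member reached the median depth of its list. The highest plus-strand depths were 475 reads per base in the eIF4AIII/Y14 list, 44.2 in the Btz/eIF4AIII list and 60.4 in the Y14/eIF4AIII list. These depths are not scaled between lists. Within their own lists they ranked 1634 of 34945, 21983 of 36393 and 6903 of 16094.

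The eIF4AIII/Y14 members were narrow. Their median width was 23 nt, against 31 nt in the whole list, and 54 of 110 (49.1%; 39.4 to 58.8) were 18 to 23 nt wide, against 17.6% of the whole list. The most frequent width was 19 nt, with 17 members. Of these narrow peaks, 35 lay on the plus strand and 19 on the minus strand, and the median width was 21 nt on the plus strand and 30 nt on the minus strand. Over the whole list the strands had median widths of 30 and 31 nt. In Y14/eIF4AIII, 18 of 90 members (20.0%; 12.3 to 29.8) were 18 to 23 nt wide, against 8.40% of the list, and in Btz/eIF4AIII 7 of 75 (9.33%; 3.84 to 18.3), against 4.67%. The range of 18 to 23 nt was chosen after the widths were seen. Median widths in these lists were 45.5 nt, against 48 nt for the whole Y14/eIF4AIII list, and 51 nt, against 53 nt for the whole Btz/eIF4AIII list.

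The widest member of every list lay at the same place, on the plus strand of the left block. It was the 143 nt peak at 496309 to 496451 in eIF4AIII/Y14 (52.8 reads per base), the 210 nt peak at 496265 to 496474 in Btz/eIF4AIII (4.62) and the 204 nt peak at 496266 to 496469 in Y14/eIF4AIII (7.36). Of the eIF4AIII/Y14 members that overlapped a Btz/eIF4AIII peak, 38 of 65 lay wholly within it (58.5%; 45.6 to 70.6), against 59.5% in the whole list. For Y14/eIF4AIII peaks it was 43 of 77 (55.8%; 44.1 to 67.2), against 40.5% in the whole list.

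**Figure D4:**
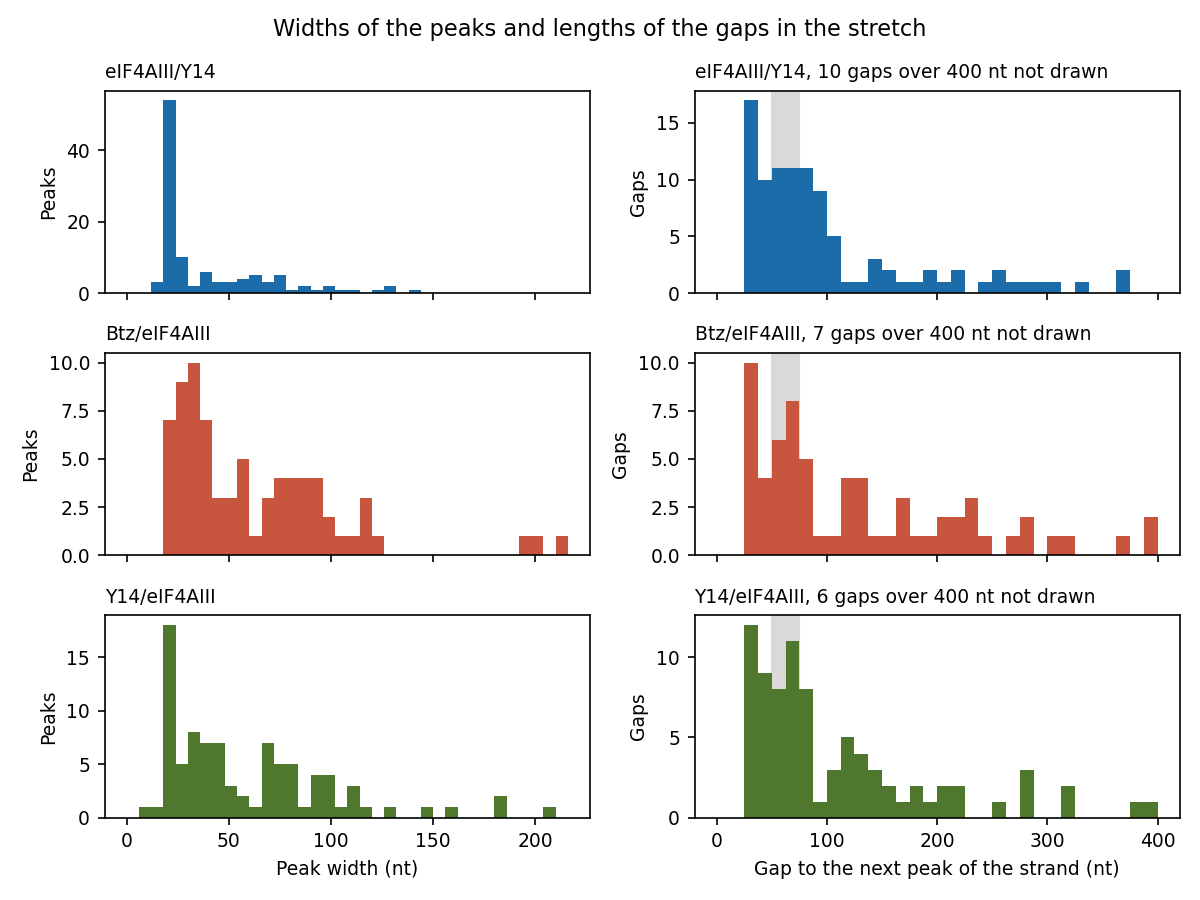
Histograms of peak width (left) and of the gap to the next peak of the same strand and list (right, grey band at 50 to 75 nt), both in nt, with a row for each purification. The eIF4AIII/Y14 widths pile up in the bin that starts at 18 nt, which holds 54 peaks, and gap lengths spread from 25 nt upward in all 3 lists.

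Gaps between neighbouring peaks of 1 strand had a median length of 80 nt in eIF4AIII/Y14, 120 nt in Btz/eIF4AIII and 82.5 nt in Y14/eIF4AIII. No gap was shorter than 25 nt in the stretch or in any whole list. Gaps of 50 to 75 nt, the length at which gaps pile up across the genome, numbered 23, 14 and 19. Counted per nt of length there were 0.885, 0.538 and 0.731 gaps in that class and 1.08, 0.56 and 0.84 in the class of 25 to 49 nt, so over both strands the class of 50 to 75 nt did not stand above its shorter neighbour in any list. It did on the plus strand, at 0.269 against 0.16 in Btz/eIF4AIII and 0.423 against 0.24 in Y14/eIF4AIII, from 7 and 11 gaps. The class of 76 to 99 nt was lower in every list, at 0.792, 0.25 and 0.375 over both strands. Over the whole lists the same rates were 134.5, 242 and 44.4 per nt, against 81.4, 94.3 and 26.2 for 25 to 49 nt. As a share of gaps up to 200 nt, the class of 50 to 75 nt made up 27.1% (17.99 to 37.8) in eIF4AIII/Y14, against 28.0% in the whole list. It made up 28.0% (16.2 to 42.5) in Btz/eIF4AIII, against 39.9%, and 26.8% (16.9 to 38.6) in Y14/eIF4AIII, against 30.8%.

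Few gaps had the same borders in different lists, and at all lengths this was so in the whole lists too. In eIF4AIII/Y14, none of the 23 gaps of that class had both borders in another list (0%; upper limit 14.8%), against 29.4% of such gaps in the whole list. In Btz/eIF4AIII it was 1 of 14 (7.14%; 0.181 to 33.9), against 18.9%, and in Y14/eIF4AIII 1 of 19 (5.26%; 0.133 to 26.03), against 34.8%. At all lengths 0 of 108 (0%; upper limit 3.36%), 3 of 73 (4.11%; 0.856 to 11.5) and 3 of 88 gaps (3.41%; 0.709 to 9.64) were shared. In the whole lists it was 4.68%, 5.26% and 4.23%. No gap of the stretch was found in all 3 lists. In the whole series 230 were, among 34918, 36366 and 16069 gaps of the lists, so the stretch holds too few gaps to show a difference. When borders could differ by up to 2 nt, 11 pairs of gaps matched in place of 3.

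The 3 gaps with identical borders were all between Btz/eIF4AIII and Y14/eIF4AIII. On the plus strand the gap at 495038 to 495172, 135 nt long, had 3.49 reads per base in the peak upstream and 3.36 in the peak downstream in the Btz/eIF4AIII list, and 5.66 and 25.5 in the Y14/eIF4AIII list. On the minus strand the gap at 494803 to 494879, 77 nt long, had 10.3 and 9.24 in the Btz/eIF4AIII list and 30.8 and 4.0 in the Y14/eIF4AIII list. The gap at 503449 to 503505 on the minus strand, 57 nt long, had 4.02 and 12.6 in the Btz/eIF4AIII list and 15.2 and 12.0 in the Y14/eIF4AIII list. The upstream peak was the deeper one in both lists at 1 of these 3 gaps.

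Identical single borders were no more frequent among the members than in the whole lists. Among pairs of overlapping members, 9 of 67 eIF4AIII/Y14 and Btz/eIF4AIII pairs had an identical first or last base (13.4%; 6.33 to 24.0), against 36.0% over the whole lists. For eIF4AIII/Y14 and Y14/eIF4AIII it was 20 of 80 (25.0%; 16.0 to 35.9), against 27.1%, and for Btz/eIF4AIII and Y14/eIF4AIII 22 of 74 (29.7%; 19.7 to 41.5), against 33.2%. Borders identical in all 3 lists occurred at 3 places, which were the first base 504630 on the plus strand and the last bases 503448 and 508799 on the minus strand. The last of these was also the last member base on that strand in every list, and the peaks that ended there had 23.4 reads per base in the eIF4AIII/Y14 list, 622 in the Btz/eIF4AIII list and 64 in the Y14/eIF4AIII list.

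The lists ordered the 56 shared loci by depth partly alike. The Spearman coefficient of summed depth was 0.37 between eIF4AIII/Y14 and Btz/eIF4AIII. It was 0.59 both between the 2 lists that pair eIF4AIII with Y14 and between the 2 lists captured last through eIF4AIII. Over all 4260 shared loci of the series the coefficients were 0.21, 0.15 and 0.29 in that order. These coefficients are a description over loci that share libraries and position, and locus length was itself related to summed depth in the stretch, with coefficients of 0.36, 0.38 and 0.47 in eIF4AIII/Y14, Btz/eIF4AIII and Y14/eIF4AIII. The depth of the deepest peak of a locus had coefficients of 0.08, -0.08 and -0.15 with length. Between lists its coefficients were 0.24, 0.37 and 0.60. With overlap of at least 50% of both peaks, which left 29 shared loci, the coefficients of summed depth were 0.20, 0.71 and 0.33, so the first was again the lowest and the other two were no longer equal.

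**Figure D5:**
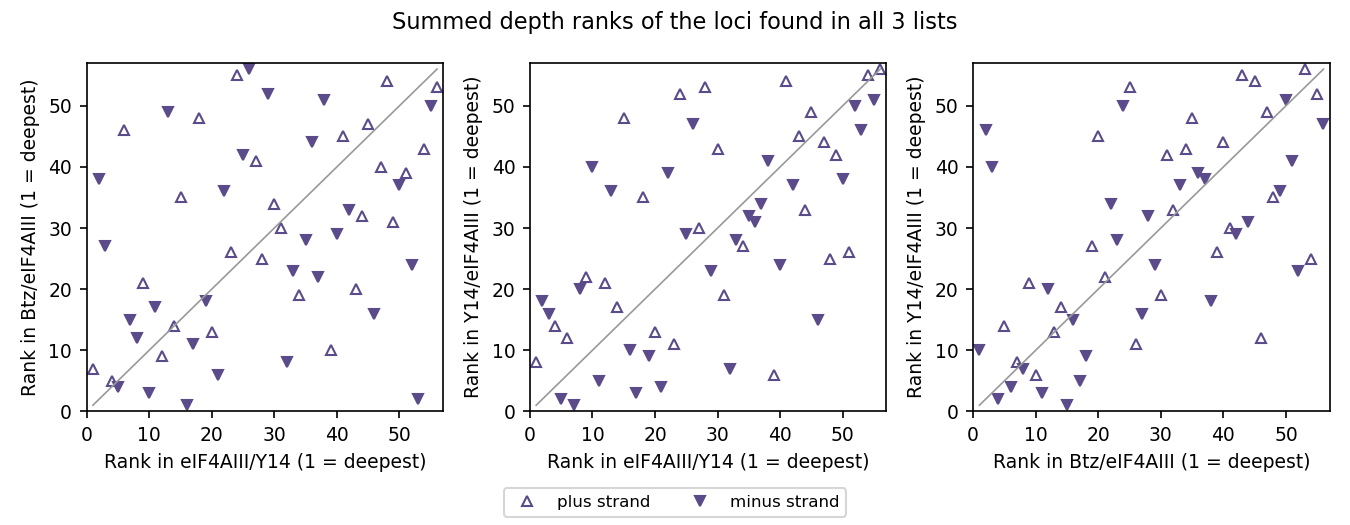
Each symbol is a locus found in all 3 lists, placed by its rank of summed depth among the 56 loci in each of 2 lists (1 is the deepest), with open triangles for the plus strand, filled ones for the minus strand and a line at equal rank. Loci scatter widely about the line for eIF4AIII/Y14 with Btz/eIF4AIII and lie closer to it in the other 2 panels.

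The locus ranked highest on average lay at 506105 to 506187 on the minus strand, with summed depths of 13135 in the eIF4AIII/Y14 list (rank 5), 8216 in the Btz/eIF4AIII list (rank 4) and 39162 in the Y14/eIF4AIII list (rank 2). The next, at 497081 to 497274 on the plus strand, was described above and ranked 1, 7 and 8. The locus at 497407 to 497501, plus strand, ranked 4, 5 and 14, with 15331, 3288 and 2105. The locus at 503587 to 503677, minus strand, ranked 7, 15 and 1, with 12416, 1229 and 78683. At 507974 to 508162, minus strand, the ranks were 16, 1 and 10, with 9436, 55521 and 2469. Of these 5 loci, that at 506105 to 506187 was the only one with a rank of 5 or better in all 3 lists.

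At the other end, the locus at 494591 to 494652 on the plus strand, at the left edge of the left block, ranked 56, 53 and 56, with summed depths of 93 in the eIF4AIII/Y14 list, 161 in the Btz/eIF4AIII list and 136 in the Y14/eIF4AIII list. The locus at 497785 to 497825, minus strand, ranked 55, 50 and 51 with 95, 203 and 331. The loci at 502751 to 502778, 504799 to 504879 and 506268 to 506313, all on the plus strand of the right block, came next by mean rank. Their summed depths were 181, 931 and 1780 in the eIF4AIII/Y14 list, 323, 265 and 280 in the Btz/eIF4AIII list, and 227, 403 and 228 in the Y14/eIF4AIII list. These 5 were low in all 3 lists by summed depth, the measure that picked them. By the deepest peak, their best rank was 26 in eIF4AIII/Y14 (506268 to 506313) and 23 in Btz/eIF4AIII (502751 to 502778). In Y14/eIF4AIII it was 41 (497785 to 497825).

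The lists disagreed most at 508777 to 508799 on the minus strand, the outermost locus, which ranked 53 in the eIF4AIII/Y14 list, 2 in the Btz/eIF4AIII list and 46 in the Y14/eIF4AIII list, with 327, 14303 and 448. Its Y14/eIF4AIII peak was 7 nt wide. By the depth of the deepest peak the ranks were 48, 2 and 3 in the same order. With peaks of at least 10 nt it was no longer a shared locus. The ranks at 497773 to 497812, plus strand, were 6, 46 and 12, with 12667, 272 and 2356. At 505887 to 506048, minus strand, they were 10, 3 and 40, with 11982, 13793 and 635. The loci at 504055 to 504119 and 497147 to 497238, both on the minus strand, held ranks 2 and 13 of the eIF4AIII/Y14 list, ranks 38 and 49 of Btz/eIF4AIII and ranks 18 and 36 of Y14/eIF4AIII. At each of these 5 loci Btz/eIF4AIII gave the highest or the lowest of the 3 ranks. Except at 505887 to 506048, eIF4AIII/Y14 gave the other end. The loci were picked by their rank difference and 2 of 3 lists always give the ends, so nothing is read from this. The share over the 56 loci was not computed. The difference between the highest and the lowest rank of a locus had a median of 14.5 places of 56, and at 5 loci it was no more than 5 places.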

How the data were processed

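EJC-bound RNA of S2 cells was sequenced from 3 tandem purifications with 1 library each, grouped by the labels. For each library there is a stranded peak list deposited by the authors, whose track name, per the file headers, says that peaks were clipped and merged. Per the submitters' processing notes, Bowtie and SAMtools were used. Which caller, calling threshold and build were used is not given in the sources here. The deposited score is a signal value. Multiplying it by the width of the peak gave whole numbers (tolerance 0.001) throughout, at 100% in each list. Depth limits which peaks were called, and shallow members lie nearest to an unknown threshold.

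Members, strand, width, depth, gaps and loci (same strand, overlap of 1 bp or more) were computed with Python 3.11, NumPy 2.4.6 and SciPy 1.17.1. The interval functions were checked on simulated data. Loci named in the text are the 5 deepest and the 5 shallowest by mean rank and the 5 with the largest rank difference. Shared gaps, the longest gap, some opposite-strand pairs of loci, and the widest and the deepest peak per list are named too. The stretch, its members and the measures were chosen with earlier results of these data known. Alternatives covered membership, minimum width, depth, overlap, strand and borders. One track name, that of the eIF4AIII/Y14 list, gives Y14 alone, and its label was followed. No genome sequence was used, so none is printed.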

Additional observations from a re-analysis of the deposited data

How the results depend on the processing

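Of 27 counts recomputed under an alternative, 15 stayed within 1.5 times of the value given and 12 did not. Those that stayed came from merging without regard to strand (39 loci in place of 56) and from 2 further settings. These were any overlap with the stretch and peaks of at least 10 nt, which changed hardly any member, so little could move. Every count under the depth, 50% overlap and 2 nt border settings moved further. The 24 recomputed depth-order coefficients all differed from the value given at 2 decimals, and none changed sign. With only peaks at or above the median depth of their list, 63 eIF4AIII/Y14, 4 Btz/eIF4AIII and 12 Y14/eIF4AIII members were left, with 1 locus in all lists. Gaps of 50 to 75 nt then numbered 8, 1 and 0, and members over an opposite-strand peak 20, 0 and 0, in the same order of lists. Fewer peaks entered these counts, and the part of peak number in the change was not tested. Overlap of at least 50% of both peaks gave 29 loci in all lists, and borders within 2 nt gave 11 shared gaps. Depth-order coefficients are given for eIF4AIII/Y14 with Btz/eIF4AIII, eIF4AIII/Y14 with Y14/eIF4AIII and Btz/eIF4AIII with Y14/eIF4AIII. By the deepest peak they were 0.24, 0.37 and 0.60. With overlap of at least 50% of both peaks they were 0.20, 0.71 and 0.33, and with peaks of at least 10 nt 0.44, 0.58 and 0.64. Settings chosen after seeing the data gave 0.47, 0.56 and 0.60 on the plus strand, 0.27, 0.61 and 0.51 on the minus strand, 0.51, 0.62 and 0.75 up to position 500000, 0.25, 0.64 and 0.47 beyond it, and 0.45, 0.54 and 0.65 without loci that hold a peak above the 90th percentile of its list. The cause was not tested. No paired analysis was possible because each purification had 1 library and no result comes from a test.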

Other observations

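Peaks whose depth was a whole number (tolerance 1e-09, peaks of at least 15 nt) were fewer among the members than in the whole lists. They made up 40 of 109 in eIF4AIII/Y14 (36.7%; exact 95% interval 27.7 to 46.5), against 51.7% in the whole list. In Btz/eIF4AIII it was 3 of 75 (4.0%; 0.833 to 11.2), against 39.1%, and in Y14/eIF4AIII 12 of 89 (13.5%; 7.17 to 22.4), against 53.3%. Among the eIF4AIII/Y14 members of 18 to 23 nt, 20 of 54 overlapped an opposite-strand peak of the list (37.0%; 24.3 to 51.3), and among its other members 33 of 56 did (58.9%; 45.0 to 71.9). Wider peaks overlap more easily, and the part of width in this difference was not tested.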
